A study of Homo sapiens with 5 samples.

Results

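LU-102 combined with CGI-1746 was compared with CGI-1746 alone, as 1 library of MDA-MB-231 cells treated with both compounds against 1 library of the same line treated with CGI-1746. MDA-MB-231 is an established triple-negative breast cancer line with mesenchymal features. A gene was compared where its level reached 1 in either library, which 4193 of the 4202 genes in the deposited table did, and its difference was the log2 ratio of the levels after adding a pseudocount of 1 to each. The other libraries were mock-treated cells, cells given LU-102 alone and cells given bortezomib, again 1 library each, all after 4 h of treatment. The labels read here state no doses. The labels describe CGI-1746 as an inhibitor of the kinase BTK, and the title of the series gives the proteasome as a target whose activities it inhibits allosterically. LU-102 is named there only as the submitters' own inhibitor, and is known as a blocker of the trypsin-like sites of the proteasome. Bortezomib, which acts mainly on the chymotrypsin-like sites, was the proteasome inhibitor control.

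The proteasome is a barrel-shaped protease that degrades proteins tagged with ubiquitin, and its inner chamber carries several kinds of catalytic site. When degradation is blocked, unfolded proteins accumulate and the transcription factor HSF1 binds heat shock elements in the promoters of chaperone genes, above all those of the inducible HSP70 proteins. Cells also respond through NRF2, which controls antioxidant genes, through the metal-responsive factor MTF1, which controls metallothioneins, and through NRF1 (the product of NFE2L1), which controls the genes of the proteasome itself.

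With LU-102 added, the mRNAs with the highest ratios at a level of at least 5 were those of the inducible HSP70 genes HSPA1B and HSPA1A, each near 2-fold above its level with CGI-1746 alone, and HSPA6. The metallothionein gene MT2A came next, then YDJC, the histone gene H4C11 and the HSP40 gene DNAJB1. RNU6ATAC (1.19) and the small nucleolar RNAs SNORA71D (0.97) and SNORD10 (0.89) had ratios of this size on few reads. The abundant noncoding RNAs 7SL and RNase MRP RNA were also higher. No subunit of the proteasome core and no ATF4 or CHOP target compared reached a log2 ratio of 0.32 in size, which few genes of any kind did. Among the catalytic subunits named, PSMB5 was at 0.05, PSMB8 at 0.20 and PSMB6 at 0.24. Subunits that carry the trypsin-like site are not among them. Feedback genes of the ERK pathway and immediate early genes lay slightly below the rest. Few genes differed by much: 3 genes were 2-fold or more higher (0.0715% of those compared) and 1 was 2-fold or more lower (0.0238%). At 1.5-fold there were 20 higher (0.477%) and 6 lower (0.143%), and at a log2 ratio of 0.32 or more in size, the smallest step counted, 142 higher (3.39%) and 28 lower (0.668%). Median-of-ratios scaling turned the balance of the last step to 53 higher and 68 lower. Genes that reached 0.32 or −0.32 below are those of the last step on the deposited scale. Each list count below is to be read beside these shares over all genes, near which 0 lies for a short list. With 1 library in each condition, no difference has a replicate error and none was tested.

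The promoters of the chaperone and metallothionein genes with high ratios are shown because they carry the elements through which these families are known to be switched on. Each is the 250 bases before the transcription start site, read on the plus strand of GRCh38.p14 from RefSeq. HSPA1A lies at chr6:31815293-31815542, HSPA1B at chr6:31827488-31827737 and HSPA6 at chr1:161524290-161524539. Capitals mark inverted pairs of the heat shock element, GAANNTTC or TTCNNGAA, on either strand, with overlapping matches joined in 1 run.
HSPA1A: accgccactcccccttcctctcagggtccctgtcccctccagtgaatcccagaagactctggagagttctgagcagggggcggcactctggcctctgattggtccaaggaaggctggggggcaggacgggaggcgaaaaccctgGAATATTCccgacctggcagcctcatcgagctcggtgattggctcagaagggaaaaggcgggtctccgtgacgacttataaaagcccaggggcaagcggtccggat
HSPA1B: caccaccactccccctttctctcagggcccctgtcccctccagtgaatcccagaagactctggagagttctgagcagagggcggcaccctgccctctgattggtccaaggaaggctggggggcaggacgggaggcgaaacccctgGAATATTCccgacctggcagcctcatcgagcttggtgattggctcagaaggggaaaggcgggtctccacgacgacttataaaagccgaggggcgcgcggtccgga
HSPA6: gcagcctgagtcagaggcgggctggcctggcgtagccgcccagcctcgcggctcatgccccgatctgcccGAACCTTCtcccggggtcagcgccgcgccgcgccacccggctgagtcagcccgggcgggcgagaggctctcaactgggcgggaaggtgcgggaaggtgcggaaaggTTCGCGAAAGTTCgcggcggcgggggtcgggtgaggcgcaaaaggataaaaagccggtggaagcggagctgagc

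The HSPA1A and HSPA1B promoters were 93.6% identical over 251 aligned positions, and each held the 8-base pair GAATATTC, at 106 to 99 bases before the start in HSPA1A and at 105 to 98 in HSPA1B. The HSPA6 promoter held GAACCTTC and, closer to the start, the 13-base run TTCGCGAAAGTTC, in which the pairs overlap. Pairs in either order were found in 10 of the 34 matched promoters of the heat shock lists (29.4%), in 8.45% of the 3338 matched promoters of all genes in the table and in 11.75% of all 27305 promoters. The run of 3 units, GAANNTTCNNGAA on either strand, was in 5 of the 34 (14.7%) and in 0.42% of the promoters of the table. These were CHORDC1, DNAJB6, HSPA6, HSPA8 and SERPINH1, of which HSPA6 alone reached a log2 ratio of 0.32. HSPA1A and HSPA1B held no run of 3 units. DNAJB1 and HSPH1 held no such pair in this window.

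The metallothionein promoters lie at chr16:56608334-56608583 for MT2A and chr16:56682220-56682469 for MT1X. Capitals mark TGCNCNC on either strand, a looser form of the core of the metal response element, TGCRCNC, where R is A or G.
MT2A: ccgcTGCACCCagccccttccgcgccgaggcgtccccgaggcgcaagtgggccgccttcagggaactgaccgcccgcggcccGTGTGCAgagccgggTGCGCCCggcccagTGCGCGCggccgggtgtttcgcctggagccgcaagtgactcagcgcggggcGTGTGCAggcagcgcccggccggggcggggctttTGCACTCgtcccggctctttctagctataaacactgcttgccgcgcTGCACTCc
MT1X: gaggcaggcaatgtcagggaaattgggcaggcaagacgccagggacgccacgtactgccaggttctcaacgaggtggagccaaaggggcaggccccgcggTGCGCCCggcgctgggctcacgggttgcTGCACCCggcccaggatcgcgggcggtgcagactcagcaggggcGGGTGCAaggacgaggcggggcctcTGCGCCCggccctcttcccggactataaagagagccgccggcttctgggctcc

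MT2A held 7 such cores and MT1X held 4. All of these also fit TGCRCNC. The looser form is short and common: 57.4% of the promoters of the table and 48.4% of all promoters held at least 1. The share that held TGCRCNC was not counted.

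HSPA1B encodes the inducible HSP70 protein, which refolds damaged proteins. Its level was 62.2 in mock cells, 79.7 with LU-102, 136 with CGI-1746, 284 with both compounds and 99.5 with bortezomib. The library with both compounds was the highest of the 5, and bortezomib lay below CGI-1746. After median-of-ratios scaling the combination was still the highest, at 231, but bortezomib, at 171, lay above CGI-1746, at 122. The log2 ratio for LU-102 added to CGI-1746 was 1.06, against 0.35 for LU-102 alone over mock. HSPA1B is listed with 5805 recovered reads with CGI-1746 and 12139 with both, a ratio of 2.09 with an exact 95% Clopper-Pearson interval of 2.03 to 2.16. Such intervals cover counting error only, and not the spread between cultures.

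HSPA1A, which encodes the same protein from the neighbouring gene, stood at 24.0 in mock, 31.6 with LU-102, 52.7 with CGI-1746, 107 with both and 38.0 with bortezomib. The order of the libraries was that of HSPA1B, and the log2 ratio was 1.01 when LU-102 was added to CGI-1746 and 0.39 when it was given alone. Because the genes are near copies, how the authors divided their shared reads could move either value. Their summed level was 188 with CGI-1746 and 391 with both, a ratio of 2.07, against 1.29 for LU-102 over mock.

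HSPA6 is a strictly stress-inducible HSP70 gene that resting cells hardly express. Its level was 1.43 in mock, 1.91 with LU-102, 2.92 with CGI-1746, 6.30 with both and 4.44 with bortezomib. Bortezomib lay between CGI-1746 and the combination on the deposited scale, and above the combination after median-of-ratios scaling (7.61 against 5.14). Its reads numbered 117 with CGI-1746 and 252 with both, so that the ratio was 2.16 (interval 1.72 to 2.71), and its log2 ratio was 0.90 with the pseudocount, against 0.26 for LU-102 alone.

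DNAJB1, the HSP40 partner that hands substrates to HSP70, had a level of 10.6 in mock, 11.4 with LU-102, 15.1 with CGI-1746, 23.7 with both and 4.56 with bortezomib. The combination was again the highest and bortezomib the lowest. The log2 ratio was 0.62 with LU-102 added and 0.09 with LU-102 alone. That the ratios of these chaperone genes were larger in the presence of CGI-1746 than in its absence was not tested, as each rests on single libraries.

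**Figure D1:**
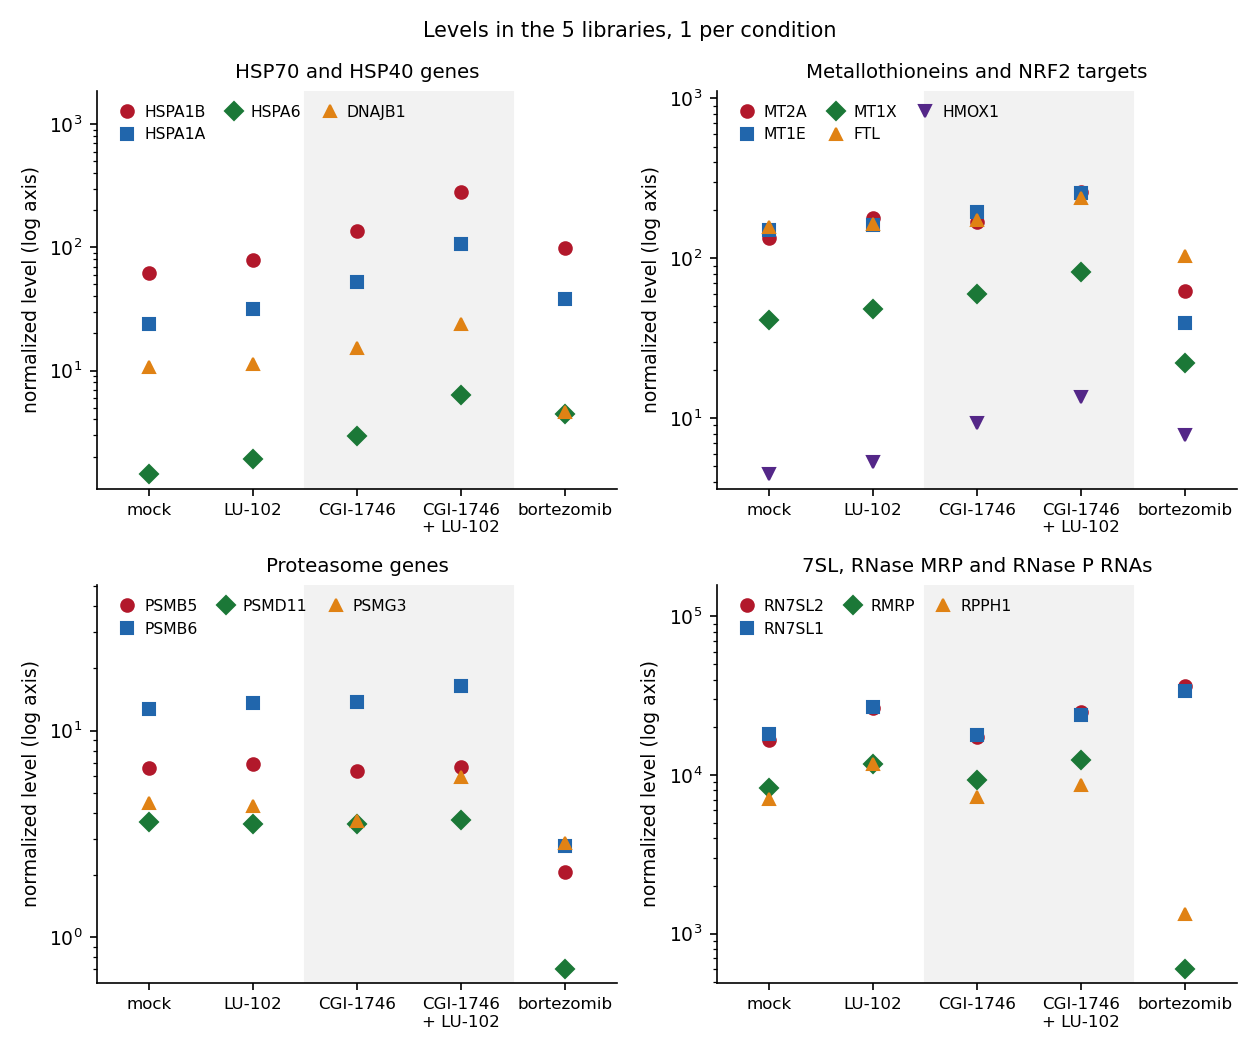
Level of named genes (vertical log axes, the authors' normalized level) in each of the 5 libraries, 1 point per gene and library, with the compared libraries on the grey band. In the upper left panel HSPA1B goes from 136 with CGI-1746 to 284 with both compounds, while in the lower left panel PSMB5 is at 6.40 and 6.66.

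The other HSP70 and HSP40 genes lay between −0.17 and 0.22. Of the 9 HSP70 and HSP110 genes compared, 8 lay above the median of all genes and 3 reached 0.32, namely HSPA1A, HSPA1B and HSPA6. The list had a median log2 ratio of 0.17, beside 0.04 over all genes. For LU-102 alone it was −0.05, beside −0.06 over all genes. HSPA8, the constitutive HSP70, had levels of 480 with CGI-1746 and 539 with both (0.17), HSPH1 had 0.06 and HSPA13, an HSP70 of the endoplasmic reticulum, had −0.17. Of 10 HSP40 genes, 8 lay above the median of all genes, with DNAJA1 at 0.22 and DNAJB1 alone past 0.32. Of 19 HSP90, HSP60 and small heat shock genes and their partners, 17 lay above it, with a list median of 0.13. In this list 0 reached 0.32, beside 3.39% over all genes. The highest of them were HSPB1, a small heat shock protein that holds unfolded proteins, at 0.32 after rounding and just under that step, SERPINH1, the collagen chaperone, at 0.31, HSPE1 at 0.28 and HSP90AA1, the inducible HSP90, at 0.26. The chaperonin TRiC, which folds actin and tubulin, had a list median of 0.07 with 7 of 10 genes above the median of all genes.

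Most genes of the proteasome itself lay slightly above the median of all genes. Among 12 subunits of the 20S core, 9 lay above the median of all genes and the list median was 0.11. In this list 0 reached 0.32 or −0.32, beside 3.39% and 0.668% over all genes. Over the alternatives run, the median of this list lay between 0.0052 and 0.078 above that of all genes. The catalytic subunit PSMB5, which carries the chymotrypsin-like site, was 6.57 in mock, 6.91 with LU-102, 6.40 with CGI-1746, 6.66 with both and 2.08 with bortezomib (0.05). PSMB6, of the caspase-like site, went from 13.8 to 16.4 (0.24), and the immunoproteasome subunit PSMB8 from 4.20 to 4.96 (0.20). Among 18 subunits of the 19S particle, which recognises and unfolds substrates, 15 lay above the median of all genes and the list median was 0.12. The highest were ADRM1, a ubiquitin receptor, at 0.26 and PSMC3, an ATPase, at 0.25.

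PSMG3, a chaperone for assembly of the core, stood out from its list of 8 activators and assembly factors. It was 4.49 in mock, 4.34 with LU-102, 3.66 with CGI-1746, 5.97 with both and 2.85 with bortezomib. The CGI-1746 library was the lower of the pair and lay below mock, and the log2 ratio was 0.58. The activator subunit PSME2 followed at 0.30.

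Among 17 genes for ubiquitin shuttles, p97 and its partners, 11 lay above the median of all genes, with UBXN1 at 0.30, the autophagy receptor SQSTM1 at 0.21 and VCP, the p97 ATPase itself, at 0.19. No gene of this list reached 0.32, beside 3.39% over all genes.

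Metallothioneins, small proteins that bind zinc and copper, formed the list with the highest median among mRNAs, 0.42 over 6 genes. MT2A was 135 in mock, 179 with LU-102, 168 with CGI-1746, 261 with both and 62.1 with bortezomib. Each compound alone lay above mock and the combination above both, and the log2 ratio was 0.63, against 0.40 for LU-102 alone. MT1X was 41.1, 48.2, 59.8, 81.6 and 22.0 in the same order of libraries (0.44), and MT1E was 150, 161, 196, 257 and 39.6 (0.39). MT1F reached 0.51, while MT1A and the zinc exporter SLC30A1, another MTF1 target, were at −0.09 and 0.01. The members past 0.32 were 4 metallothioneins, and the exporter was not among them.

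Among 15 NRF2 targets, 14 lay above the median of all genes and the list median was 0.14. HMOX1, which degrades heme, was 4.44 in mock, 5.33 with LU-102, 9.30 with CGI-1746, 13.5 with both and 7.80 with bortezomib. The combination was the highest library on the deposited scale, but bortezomib was after median-of-ratios scaling, at 13.4. The log2 ratio was 0.49 with LU-102 added and 0.22 with LU-102 alone. FTL, the ferritin light chain that stores iron, was 157, 164, 173, 240 and 103 in the same order, a log2 ratio of 0.47 against 0.06 for LU-102 alone. The ferritin heavy chain gene FTH1 was at 0.30, SRXN1, which repairs oxidised peroxiredoxins, at 0.19 and GCLM, of glutathione synthesis, at 0.16. Of the 15, HMOX1 and FTL reached 0.32.

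The markers of the unfolded protein response lay close to the median of all genes. Of 13 ATF4 and CHOP targets, 8 lay above the median of all genes and the list median was 0.06. In this list 0 reached 0.32, beside 3.39% over all genes. ATF4 itself was at 0.08, DDIT4 at 0.07, CEBPB at 0.08, DDIT3 (the gene of CHOP) at −0.08 and PPP1R15A, which reverses translational arrest, was the highest at 0.19. Among 23 chaperones and partners of the endoplasmic reticulum the median was 0.08, against −0.16 for LU-102 alone, with XBP1 at 0.18 and PDIA4 at −0.07. Which side of the all-gene median these 2 lists and the TRiC list took depended on the scaling, the level required or the adjustment for transcript properties.

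**Figure D2:**
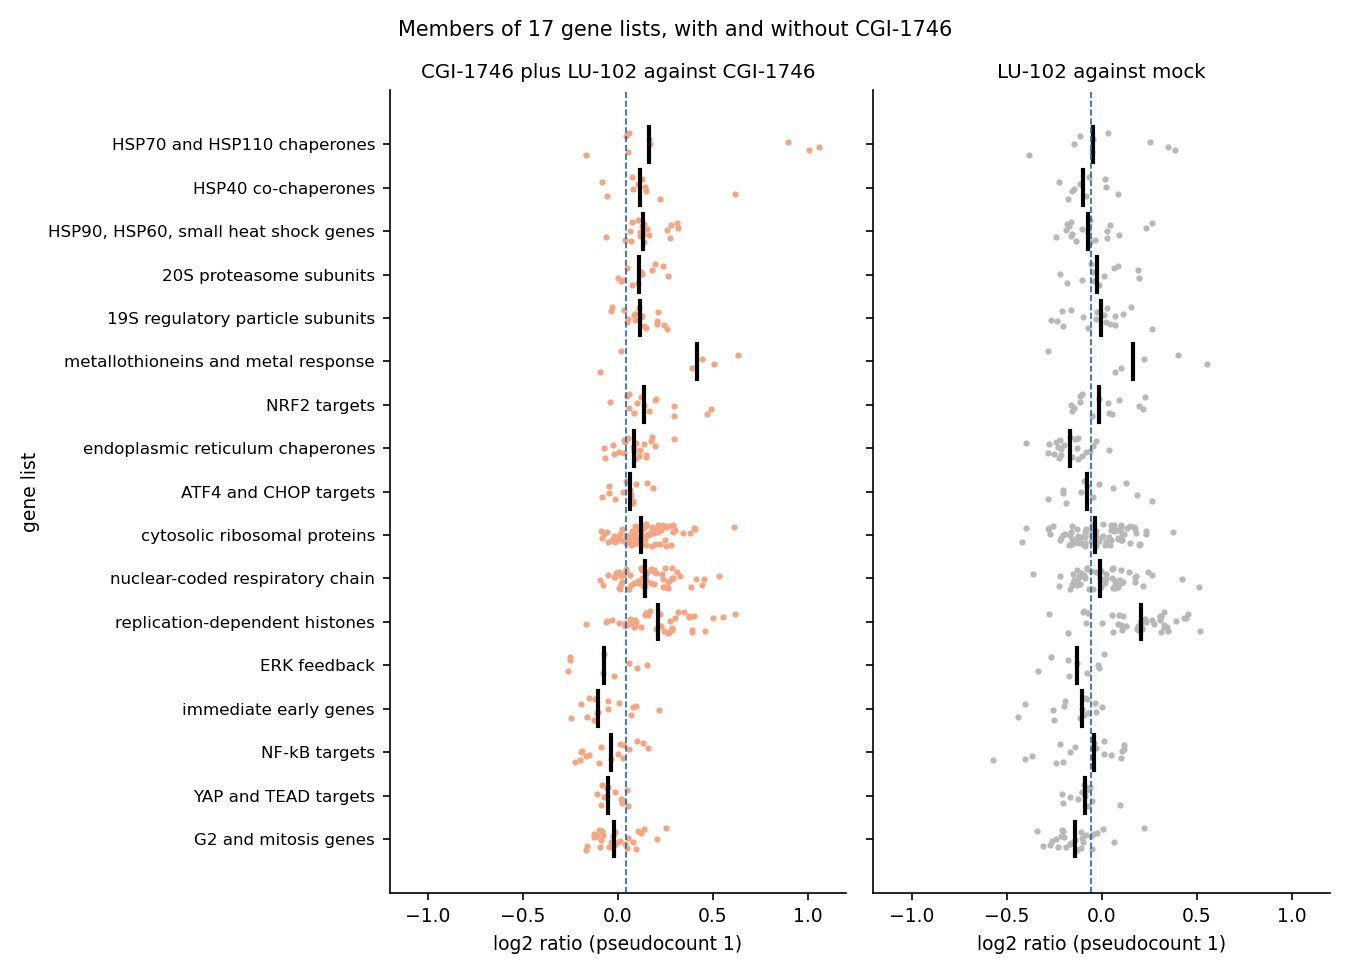
Log2 ratio of each member (points) and median (black bars) of 17 gene lists, for LU-102 added to CGI-1746 on the left and LU-102 against mock on the right, with the median of all genes as a dashed line. HSPA1B, HSPA1A and HSPA6 stand apart at 1.06, 1.01 and 0.90 on the left, and metallothioneins have the highest list median, 0.42.

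Some signalling lists lay below the rest. Of 9 ERK feedback genes, 3 were above the median of all genes and the list median was −0.07, against −0.13 for LU-102 alone. DUSP6, a phosphatase that switches off ERK, was 12.4 in mock, 9.61 with LU-102, 9.31 with CGI-1746, 7.59 with both and 4.78 with bortezomib. Every inhibitor library was below mock and the combination was below each compound alone (−0.26). PHLDA1 had −0.25 and SPRY2, an inhibitor of receptor signalling, had −0.25. Of 15 immediate early genes 4 were above the median of all genes, with a list median of −0.10, EGR1 at −0.25, KLF10 at −0.19, MYC at −0.12 and IER5, which takes part in the heat shock response, at 0.22.

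Of 17 NF-kB targets, 4 were above the median of all genes and the list median was −0.03. IL24 was at −0.19 and CXCL8, a neutrophil chemokine, was at −0.17. Of 13 YAP and TEAD targets 2 were above it, with CCN2 at −0.07 and the tissue factor gene F3 at −0.11. Of 27 genes of G2 and mitosis 9 were above it, with CCNA2 at −0.16 and MKI67 at −0.13, the ubiquitin-conjugating gene UBE2S being the highest at 0.25. In these 5 lists 0 genes reached 0.32 or −0.32, beside shares of 3.39% and 0.668% over all genes.

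The genes with the lowest ratios at a level of at least 5 were led by TIGD2, a gene derived from a DNA transposon, at −0.50. It was 5.16 in mock, 4.16 with LU-102, 5.78 with CGI-1746, 3.78 with both and 0.464 with bortezomib. CITED2, a co-regulator that limits HIF-1 activity, was 30.4, 25.5, 30.3, 23.9 and 9.63 in the same order (−0.33). In both genes the 2 libraries with LU-102 were below mock and CGI-1746. SNAI2, a transcription factor of the mesenchymal state, had −0.25 and CHML, of Rab prenylation, had −0.28. Of the 28 genes at −0.32 or below, 9 were protein-coding, and 6 had a level of at least 5.

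Some mRNAs of ribosomal and respiratory chain proteins also had high ratios. RPS28, a protein of the small ribosomal subunit, was 7.34 in mock, 7.93 with LU-102, 6.95 with CGI-1746, 11.2 with both and 9.73 with bortezomib (0.61). Of 80 cytosolic ribosomal protein genes, 64 lay above the median of all genes and 5 reached 0.32 (6.25%, beside 3.39% over all genes): RPS28, RPS21, RPS27, RPLP2 and RPLP1. Of 56 nuclear-coded genes of the respiratory chain and its assembly, 42 lay above it and 6 reached 0.32, among them NDUFB10 at 0.53, CYC1 at 0.46 and COX8A at 0.41. For LU-102 alone the medians of these lists were −0.03 and −0.01, beside −0.06 over all genes. YDJC and LAGE3, which encodes a subunit of a tRNA-modifying complex, were at 0.63 and 0.56.

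Replication-dependent histone genes, whose mRNAs lack poly(A) tails and are therefore visible in total RNA, had a median of 0.21 over 42 genes. Of these, 35 lay above the median of all genes and 10 reached 0.32 (23.8%, beside 3.39% over all genes). Among the 10, H3C14 and H3C15 had the same ratio, 0.37, and were counted separately. How the authors divided reads shared by similar genes could move such values. For LU-102 alone the list median was also 0.21, with all genes at −0.06 there and at 0.04 with LU-102 added. H4C11 was 74.9 in mock, 61.7 with LU-102, 63.5 with CGI-1746, 97.9 with both and 11.4 with bortezomib. It had the highest ratio of the list, 0.62, although LU-102 alone lay below mock (−0.28). After adjustment for transcript properties described below, the median of the 38 histone genes with a value was 0.07.

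**Figure D3:**
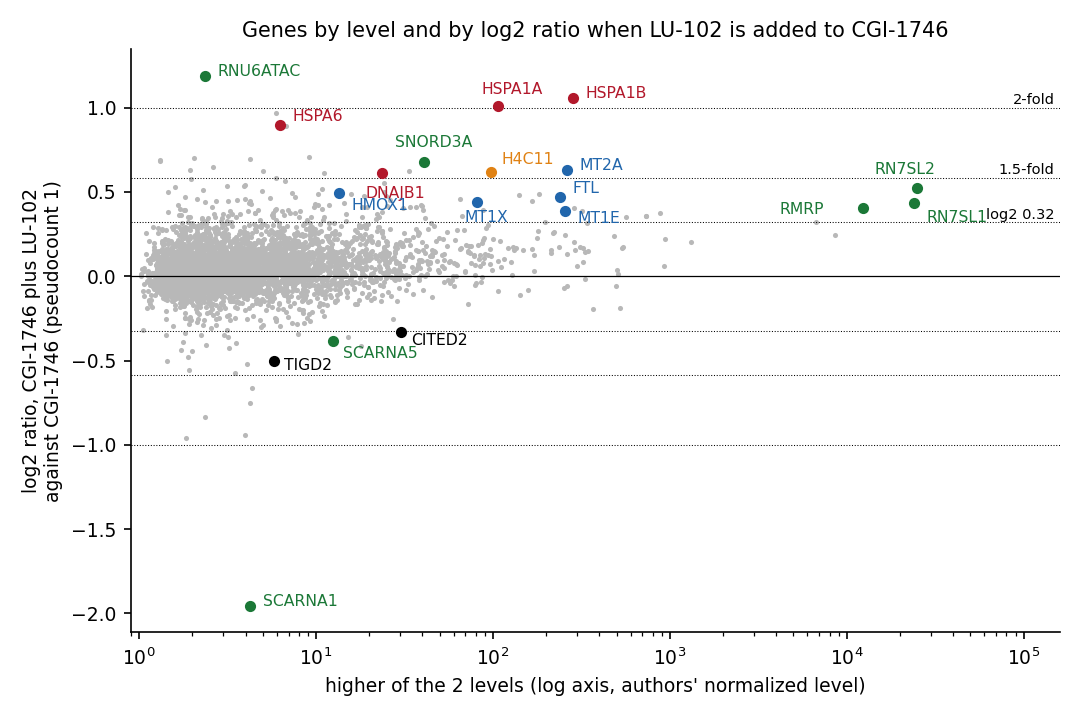
Log2 ratio of CGI-1746 plus LU-102 against CGI-1746 (pseudocount 1) by the higher of the 2 levels (log axis) for the 4193 genes compared, with dotted lines at 2-fold, 1.5-fold and a log2 ratio of 0.32. HSPA1B and HSPA1A are the genes past 2-fold at high levels, at 1.06 and 1.01, and SCARNA1 (−1.96) and RNU6ATAC (1.19) lie at low levels.

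The 7SL RNAs RN7SL1 and RN7SL2, which form the scaffold of the signal recognition particle, were the most abundant RNAs in every library. RNase MRP RNA (RMRP), RNase P RNA (RPPH1) and 7SK (RN7SK) came next in every library but bortezomib. The 7SL genes are near copies, so how the authors divided shared reads could move the level of each.

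RN7SL2 was 16597 in mock, 26281 with LU-102, 17302 with CGI-1746, 24837 with both and 36441 with bortezomib. Both libraries with LU-102 were above mock and CGI-1746, and bortezomib was above them. Summed over RN7SL1, RN7SL2 and RN7SL3, the ratio was 1.39 with LU-102 added to CGI-1746 and 1.53 with LU-102 over mock. RMRP was 8339, 11658, 9343, 12369 and 603 in the same order of libraries, with ratios of 0.40 when added and 0.48 alone, and the bortezomib library lay far below the others. RN7SK was at 0.32 after rounding, just under the step counted, and RPPH1 was at 0.25. The exact intervals of read ratios excluded 1 for 6 of the 7 RNAs of this list, all higher, and cover counting error only.

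Small nucleolar RNAs, which guide the modification of ribosomal RNA, varied in both directions. Of 34 compared, 17 reached 0.32 and 5 reached −0.32, with a median of 0.33, against 0.30 for LU-102 alone. The count rests on few reads: 21 of the 34 had under 20 reads in both libraries, and the interval of the ratio excluded 1 for 5, all of them higher. SNORD3A (U3), needed for cleavage of the ribosomal RNA precursor, went from 92.5 to 150.5 reads, and the interval of this ratio (1.62) had 2.14 as its upper bound and excluded 1. SNORA71D, SNORD10 and SNORA48 had ratios of 0.97, 0.89 and 0.70 on 6 and 14, 8 and 17, and 12 and 21 reads.

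Of 12 small Cajal body RNAs, which guide modification of spliceosomal RNAs, 3 reached 0.32 and 2 reached −0.32. SCARNA2, the best covered of these, went from 924 to 1296 reads, and the interval of this ratio (1.40) ran from 1.29 to 1.53. SCARNA1, the gene 2-fold or more lower, had 12 reads with CGI-1746 and 1 with both, so that the ratio was 0.083 (interval 0.002 to 0.563). RNU6ATAC, an RNA of the minor spliceosome and the third gene 2-fold or more higher, had 1 and 5 reads and an interval of 0.560 to 237. Of 7 spliceosomal RNAs, RNVU1-7 alone had an interval that excluded 1, with 1022 and 893.5 reads and a ratio of 0.875.

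LU-102 given alone and LU-102 added to CGI-1746 share no library, so their ratios can be set side by side. For LU-102 alone, 85 of 4193 genes were at 0.32 or more over mock (2.03%) and 60 at −0.32 or below (1.43%). Of the genes compared in both, 33 were at 0.32 or more in each, which is 23.4% of the 141 with LU-102 added and 38.8% of the 85 with LU-102 alone. In the lower direction 4 were shared, 14.8% of 27 and 6.67% of 60. Across 4189 genes the ratios had a Pearson correlation of 0.35 and a Spearman correlation of 0.36, as a description of these 4 libraries. After both were adjusted for GC content, transcript length and level these were 0.16 and 0.14 over 4144 genes.

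**Figure D4:**
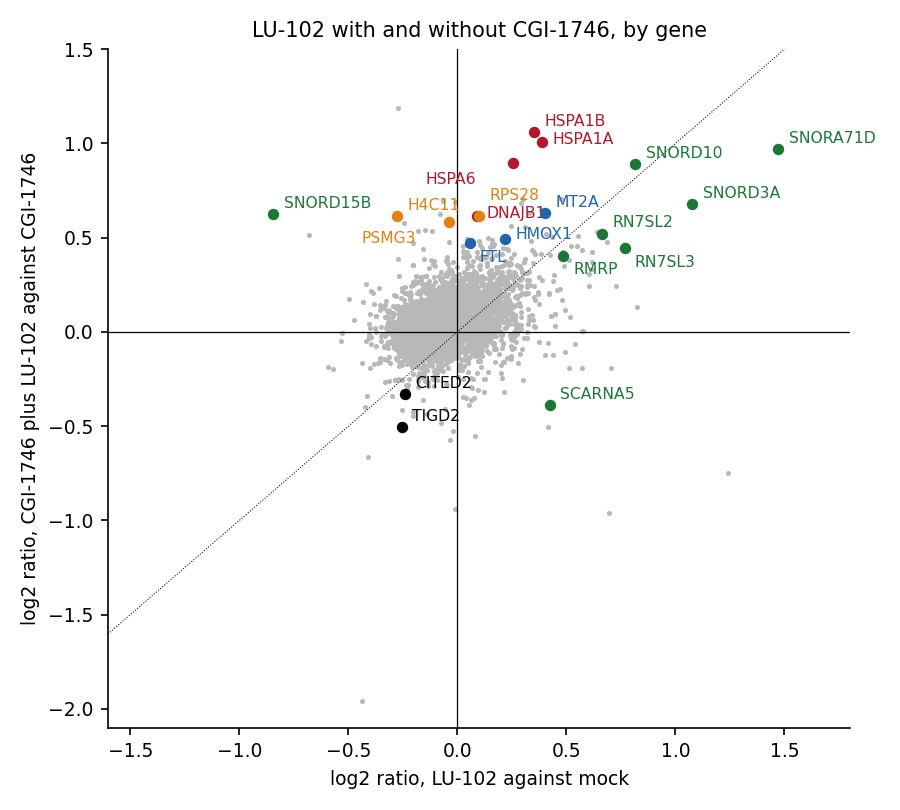
Log2 ratio of each of 4189 genes for LU-102 added to CGI-1746 (vertical) and for LU-102 against mock (horizontal), with equal values on the dotted line. HSPA1B, HSPA1A, HSPA6 and DNAJB1 lie above the line, while RN7SL2, RN7SL3 and SNORD3A lie below it.

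The ratio moved with the base composition of the transcript. Over 3957 protein-coding genes with a GC content from GENCODE 29, the Spearman correlation of ratio and GC content was 0.44 with LU-102 added. For LU-102 alone it was 0.69 over 3954 genes. The correlation was −0.24 with transcript length when LU-102 was added. From the lowest to the highest quintile of GC content the median ratio was −0.01, 0.01, 0.04, 0.08 and 0.12, and the numbers of genes at 0.32 or more were 1, 5, 16, 25 and 60. The genes of the lists differ in GC content, and the part of composition in the ratios was not tested. After adjustment HSPA1B and HSPA1A were at 0.92 and 0.89, the 20S list at 0.11, the metallothionein list at 0.30, the NRF2 list at 0.11 and the cytosolic ribosomal protein list at 0.07, beside 0.04 over all genes. For the 7SL, RNase MRP and related RNAs the adjusted median was 0.07. RN7SL1, RN7SL2, RMRP and RN7SK lay above the highest mean level of a protein-coding gene in the fit, 1232, so their adjusted values are uncertain.

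**Figure D5:**
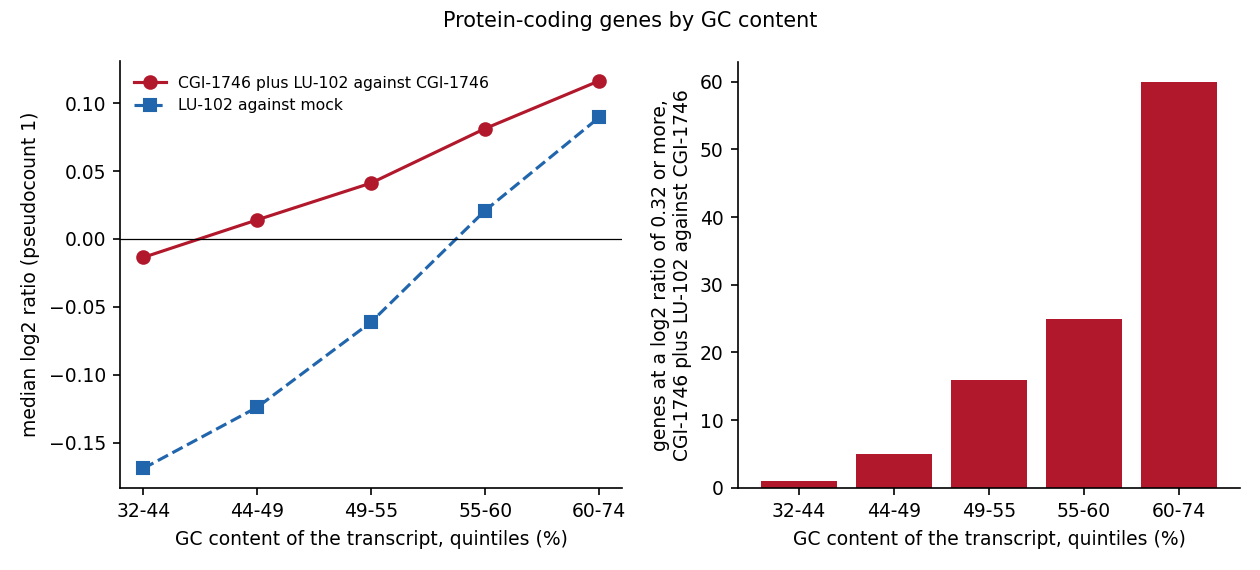
Protein-coding genes in quintiles of transcript GC content: median log2 ratio (left) for LU-102 added to CGI-1746 and for LU-102 against mock, and number of genes at a log2 ratio of 0.32 or more with LU-102 added (right, from 0). The number goes from 1 in the lowest quintile to 60 in the highest.

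Scale also bears on the small differences. The levels summed to 99255 in mock, 126120 with LU-102, 100684 with CGI-1746, 124373 with both and 135512 with bortezomib, and without RN7SL1, RN7SL2, RMRP, RPPH1 and RN7SK the sums of the compared libraries were 43585 and 47789. The median log2 ratio of all genes was 0.04, the middle 95% of genes lay between −0.18 and 0.37, and 66.8% were above 0. Scaling by median of ratios moved the median of all genes to −0.06 and the counts at 0.32 and −0.32 from 142 higher and 28 lower to 53 higher and 68 lower, and setting the median to 0 gave 108 higher and 40 lower. The ratios and counts above are on the deposited scale. With median-of-ratios scaling HSPA1B and HSPA1A had log2 ratios of 0.92 and 0.87, each under 2-fold. In bortezomib 2231 genes reached a level of 1, beside 4161 to 4177 in the other 4 libraries. All 8 mesenchymal markers of the line were in the table, with sums of 191 and 212 in the compared libraries, and the luminal keratin genes KRT8 and KRT18 summed to 38.0 and 40.1 there. Of other cell type markers, 0 of 4 luminal epithelial, 0 of 4 blood and 0 of 3 endothelial markers were in it. Every gene in the table had 5 levels that summed to at least 5.04, so an absent marker may have had a low level.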

How the data were processed

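The deposited table gives, per the file headers, 1 normalized expression signal (least squares mean) per gene and library, for 4202 genes. The submitters' processing notes name Partek and hg38. No aligner, annotation, filter or normalization was named in the labels or headers read. The lowest sum of the 5 levels of any gene was 5.04, so genes of low level are missing. The authors' ratio, p-value and FDR columns were not used. Per the labels, 150 bp paired reads of total RNA were made. For short RNA genes with under 30 reads, the product of level and gene length fell on steps of 0.5 reads in nearly all cases (29 of 30 genes with CGI-1746 and 31 of 31 with both within 0.1). The same unit gave the reads of better covered and intronless genes, where it was not checked. The depth of whole libraries is unknown.

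Genes that reached a level of 1 in either compared library were set side by side on log2(level + 1), with no test. Named genes were those with the 15 highest and 15 lowest ratios where a level reached 5, and every gene past 2-fold. Up to 6 members of each list with the largest ratios were named too, with the catalytic subunits PSMB5, PSMB6 and PSMB8. Subunits of the trypsin-like site were not named. Some named items are not reported here. List members with a level under 5, such as DDIT3, EGR1 and MT1A, were named after their values were seen. The 42 lists and their members were chosen with earlier results of these data known. Symbols of 4187 genes matched RefSeq and 4156 had a GC content from GENCODE 29. The calculation was tested on simulated data. Other pseudocounts, filters and scalings, and an adjustment for base composition, transcript length and expression level, chosen after seeing the data, were tried. Python 3.11.15, numpy 2.4.6, pandas 2.3.3 and scipy 1.17.1 were used.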

Additional observations from a re-analysis of the deposited data

Results flagged for a closer look

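At a level of at least 5, small RNAs passed a log2 ratio of 0.32 in opposite directions with and without CGI-1746 in 2 cases. SNORA81, RNVU1-14, SNORA40B and SNORA71A did so with levels under 5 in both compared libraries. SCARNA5 had a log2 ratio of −0.39 with LU-102 added to CGI-1746 (59 and 44 reads) and 0.42 with LU-102 over mock (51 and 71 reads), and the interval of the former read ratio, 0.493 to 1.12, held 1. SNORD15B had 0.62 with LU-102 added (53 and 83 reads) and −0.84 with LU-102 alone (78 and 43 reads), and the intervals of its read ratios, 1.10 to 2.25 and 0.366 to 0.799, excluded 1. Each direction rests on 1 library per condition, and the difference between the directions was not tested.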

How the results depend on the processing

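The counts depended on the scale. Genes 2-fold or more higher numbered 3 as reported and 1 with a pseudocount of 5, with median-of-ratios scaling and with the adjustment for base composition, transcript length and expression level. The gene left was HSPA1B with a pseudocount of 5. With the scaling and with the adjustment it was RNU6ATAC, on 1 and 5 reads, and HSPA1B was at 0.92 in each. Genes 2-fold or more lower numbered 1 as reported, 4 with a pseudocount of 0.5, 2 with the median log2 ratio set to 0, and 0 with a pseudocount of 5 or where a level of 5 was required. At 1.5-fold the higher count of 20 became 5 with a pseudocount of 5, 13 at a level of at least 5, 6 with median-of-ratios scaling and 13 after adjustment, and the lower count of 6 became 11 with a pseudocount of 0.5, 1 with a pseudocount of 5, 0 at a level of at least 5 and 10 with median-of-ratios scaling. At log2 ratios of 0.32 and −0.32 the higher count of 142 became 215 and 54 with pseudocounts of 0.5 and 5, 86 at a level of at least 5, 53 with median-of-ratios scaling and 80 after adjustment, and the lower count of 28 became 6 with a pseudocount of 5, 6 at a level of at least 5 and 68 with median-of-ratios scaling. That scaling moved the median log2 ratio of all genes from 0.04 to −0.060 and changed the sign of 17 of 39 list medians against 0 and of 47 of 218 named genes, whose ratios were at most 0.14 in size. No named gene past 0.32 in size changed sign under any alternative run. No paired analysis was possible because each condition has 1 library and the labels give no replicate numbers. Ratios of low levels rest on few reads, and an interval covers counting error only.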
